A study of Mus musculus with 17 samples.

Results

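A set of 1089 chromatin regions of mouse macrophages was within a fixed number of best-ranked ATAC-seq peaks 1 h after LPS, in nearly all peak lists, but not before stimulation or at 18 h. Accessible DNA was profiled in bone marrow-derived macrophages (BMDMs) by ATAC-seq, which tags open chromatin with a transposase (Tn5) and sequences the tagged fragments, and 17 lists of peaks, each from its own sample, were analysed. The same number of best-scoring peaks, 24389, was taken from every list and peaks that shared at least 1 bp were merged, which gave 34141 consensus sites present in 2 or more lists. Sites present in at least 4 of the 5 lists at 1 h, in at most 1 of the 6 lists at 0 h and in at most 1 of the 6 lists at 18 h were called early-only. These 1089 sites made up 3.19% of the consensus sites. The sites were selected on the rank of their peaks at the 3 time points, so their levels over time are given as a description without a test.

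The macrophages came from male C57Bl6/J mice aged 6 to 12 weeks, either wild type (WT) or knockout (KO) for Nr4a1, the gene of the nuclear receptor Nur77. According to the study, the KO was a whole-body deletion obtained by crossing floxed Nur77 mice with mice that expressed Cre under the CMV promoter, and KO mice that no longer carried Cre were then bred for use. The label gives the genotype of these samples as "cre". Marrow cells were differentiated for 7 days in medium conditioned by L929 cells and received 100 ng/ml LPS for 0, 1 or 18 h. Each genotype had 3 lists at 0 h and 3 at 18 h. At 1 h there were 3 KO lists and 2 WT lists, one of them labelled as replicate 1-2, which may be a pool of 2 replicates and was counted as 1 list. No source used here says that replicates came from separate animals, so spread between lists may be technical. The samples are cultured primary cells differentiated from whole marrow. Of 8 macrophage marker genes, such as Spi1 and Csf1r, each had a promoter peak among the matched-number peaks of 12 to 17 lists. Of the 4 markers each of T cells, B cells, neutrophils and fibroblasts, all but 5 had none in any list, and the exceptions were Cd3d in 17 lists, S100a8 in 15, Col1a1 in 14, Ms4a1 in 10 and Pdgfra in 1.

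LPS, a lipopolysaccharide of Gram-negative bacteria, is sensed by Toll-like receptor 4 and within minutes activates mitogen-activated protein kinases and the NF-kB pathway. The kinases induce and activate AP-1, dimers of Fos, Jun and related factors that bind TGACTCA. NF-kB dimers enter the nucleus and induce cytokine genes together with their own inhibitors, so that the first wave of the response is followed by its attenuation. In macrophages, PU.1 (binding GAGGAAGT) and C/EBP factors (TTACNNAA or TTGCNNAA) hold enhancers accessible, and stimulus-dependent factors bind at these and at additional, signal-dependent enhancers. Nur77 itself is an immediate-early gene and binds as a monomer to the NBRE, AAAGGTCA.

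The sequences at the summits of early-only sites show the 2 motifs whose share in these sites exceeded that in all consensus sites by the most percentage points. The stretches below are 101 bases of the plus strand of GRCm38 (mm10), centred on the summit and taken from RefSeq, in lower case with motif matches in capitals. They were taken from the early-only sites with the best mean rank at 1 h that held the motif within this window, and sites with both motifs were kept for a set of their own. The first set carries an NF-kB motif.
St3gal1 intron, chr15:67138754-67138854: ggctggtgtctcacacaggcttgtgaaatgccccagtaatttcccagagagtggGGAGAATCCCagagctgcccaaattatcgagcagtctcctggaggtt
Anxa5 intron, chr3:36453681-36453781: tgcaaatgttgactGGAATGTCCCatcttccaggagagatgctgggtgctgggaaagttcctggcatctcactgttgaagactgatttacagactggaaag
Nek7 intron, chr1:138596212-138596312: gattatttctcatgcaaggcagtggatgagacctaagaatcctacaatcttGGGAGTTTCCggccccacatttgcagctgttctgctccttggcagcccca

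The second set carries the AP-1 motif TGACTCA or its reverse complement TGAGTCA. The Zbtb32 site lay in an intron, whereas the sites nearest to Tnfaip3 and Otos were intergenic.
Zbtb32 intron, chr7:30594602-30594702: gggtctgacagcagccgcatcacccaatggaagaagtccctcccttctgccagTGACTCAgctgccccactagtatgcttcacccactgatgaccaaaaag
intergenic, nearest Tnfaip3, chr10:19046150-19046250: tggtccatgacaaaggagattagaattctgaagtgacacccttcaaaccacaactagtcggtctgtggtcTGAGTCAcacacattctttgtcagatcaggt
intergenic, nearest Otos, chr1:92725184-92725284: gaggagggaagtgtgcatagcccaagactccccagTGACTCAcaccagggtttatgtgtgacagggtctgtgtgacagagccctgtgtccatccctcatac

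The third set carries both motifs, and in the Plpp3 site the AP-1 match started 9 bp before and the NF-kB match 3 bp after the summit.
Acot7 intron, chr4:152185670-152185770: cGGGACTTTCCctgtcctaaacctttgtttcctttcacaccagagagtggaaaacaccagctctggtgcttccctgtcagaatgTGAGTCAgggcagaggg
Etv6 intron, nearest TSS Bcl2l14, chr6:134262139-134262239: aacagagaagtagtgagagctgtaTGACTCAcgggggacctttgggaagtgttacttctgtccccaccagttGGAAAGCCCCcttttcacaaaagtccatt
intergenic, nearest Plpp3, chr4:105268774-105268874: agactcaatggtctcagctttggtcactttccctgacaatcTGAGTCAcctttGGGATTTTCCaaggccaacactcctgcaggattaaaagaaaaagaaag

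Among the 1089 early-only sites, 587 were present in all 5 lists at 1 h and 502 in 4 of them. The WT list labelled replicate 1-2 lacked the peak at 201 of these 502 sites, the other WT list at 72, and the 3 KO lists at 47, 111 and 71. At 0 h and 18 h, 729 sites were absent from every matched-number list, and 393 were present in all 5 lists at 1 h and in none at the other times. Just outside the rule lay 612 sites with 3 lists at 1 h, 98 with 2 lists at 0 h and 146 with 2 lists at 18 h. Another 536 consensus sites were gained at 1 h in the same way and held by at least 5 of the 6 lists at 18 h (opened early and kept), and 799 were gained at 18 h only (late-only), and these serve as comparison.

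At 1 h, early-only sites ranked behind the sites present in all 17 lists at the median. Their mean rank over the 5 lists at 1 h, with a missing peak counted as rank 24390, had a median of 17428 and ranged from 3147.4 to 23721. The median was 6198 for the 10404 sites present in all 17 lists and 15194 for the sites opened early and kept. Just 10 early-only sites had a mean rank better than 5000 and 80 better than 10000. Most of the set therefore sat in the lower part of the matched-number lists, where the number of peaks taken decides which sites are members. With the best 10000 peaks of every list instead, 653 sites had the pattern, and 66 of the 1089 sites overlapped one of them (6.06%).

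The label of this set, open only early, did not hold in the complete lists. In these, 934 of the 1089 sites carried a weaker peak in at least 1 list at 0 h and 856 in at least 1 list at 18 h. The share in each list is given here beside the depth of the list, measured as background reads per kb, recovered from the fold and p columns. Depth ran from 0.382 in the WT list replicate 1-2 at 1 h to 9.75 in WT replicate 3 at 0 h. At 0 h, 73.9%, 73.6% and 80.3% of the early-only sites had a peak of any rank in the 3 WT lists (6.12, 5.11 and 9.75 reads per kb) and 80.1%, 34.2% and 10.7% in the 3 KO lists (7.65, 1.53 and 0.72 reads per kb). At 18 h the shares were 71.2%, 56.6% and 46.3% in WT (8.38, 6.19 and 4.62) and 19.6%, 14.8% and 18.4% in KO (1.59, 1.10 and 1.76). The list of KO replicate 1 at 18 h stood apart in that its shortest peaks were 66 bp, a length shared by 435 entries, against 152 to 219 bp in the other lists, and its depth was computed with this length. Of all consensus sites, 94.9% to 96.3% had a peak of any rank in the WT lists at 0 h and 96.3%, 82.1% and 67.4% in the KO lists, and at 18 h 89.3% to 95.8% in WT and 69.6% to 74.1% in KO. The early-only sites were below these shares in every list at 0 h and 18 h, a direction set by the rule. At 1 h, 81.5% and 99.5% of the sites had a peak of any rank in WT and 100%, 96.0% and 99.4% in KO, which the rule required to be high whatever the depth. Within the matched number, by contrast, the share was 1.38% to 5.60% at 0 h, 81.5% to 95.7% at 1 h and 1.38% to 6.15% at 18 h, as the rule sets.

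**Figure D1:**
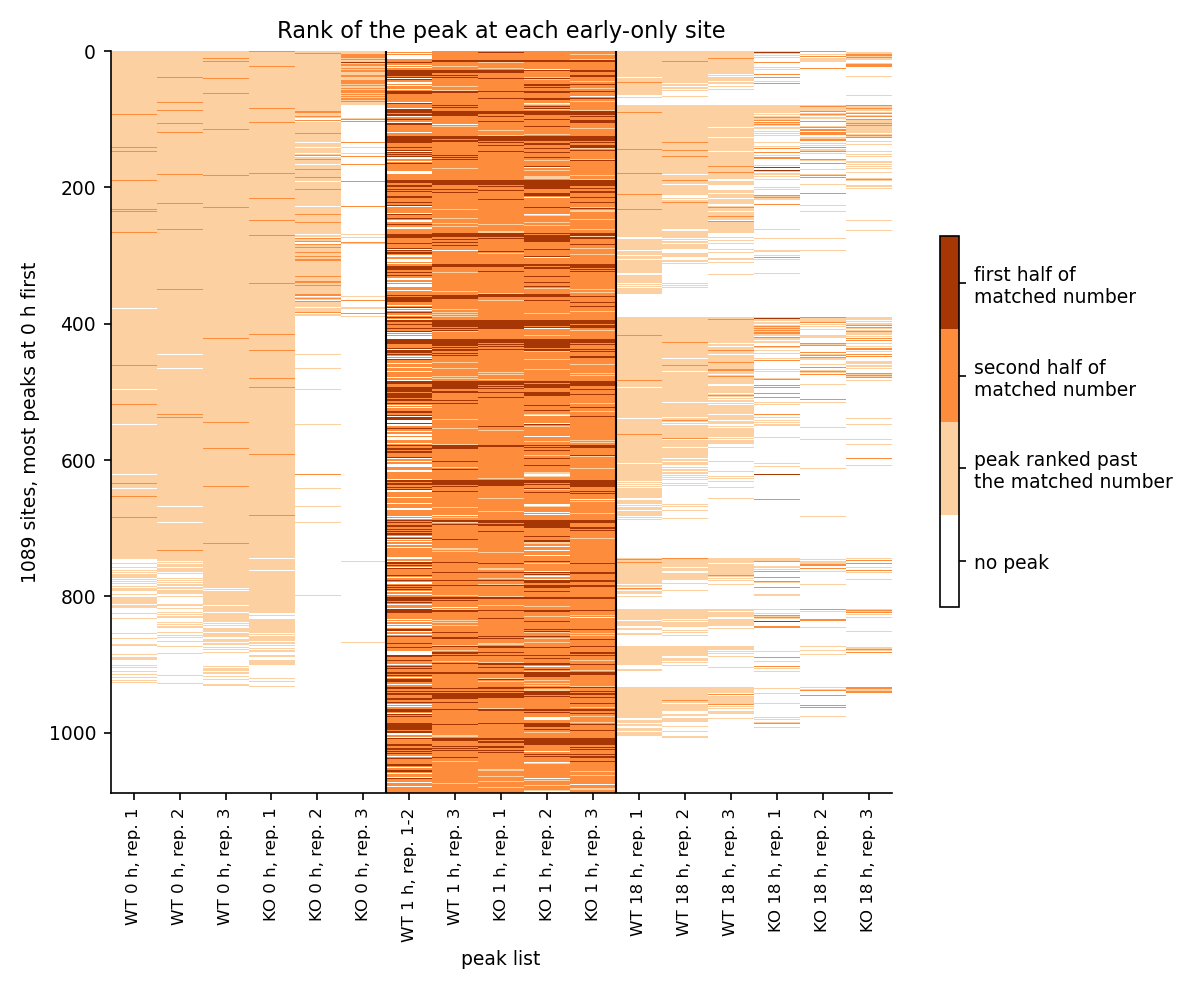
Rank of the peak at each of the 1089 early-only sites (rows, ordered by the number of complete lists at 0 h, then at 18 h, that hold a peak, then by mean rank) in the 17 lists (columns). Light orange marks peaks ranked past the 24389 taken from each list, the 2 darker shades the second and first part of the matched number, and white no peak; the columns at 1 h are dark by selection, while most rows are light orange in the deep lists at 0 h.

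**Figure D2:**
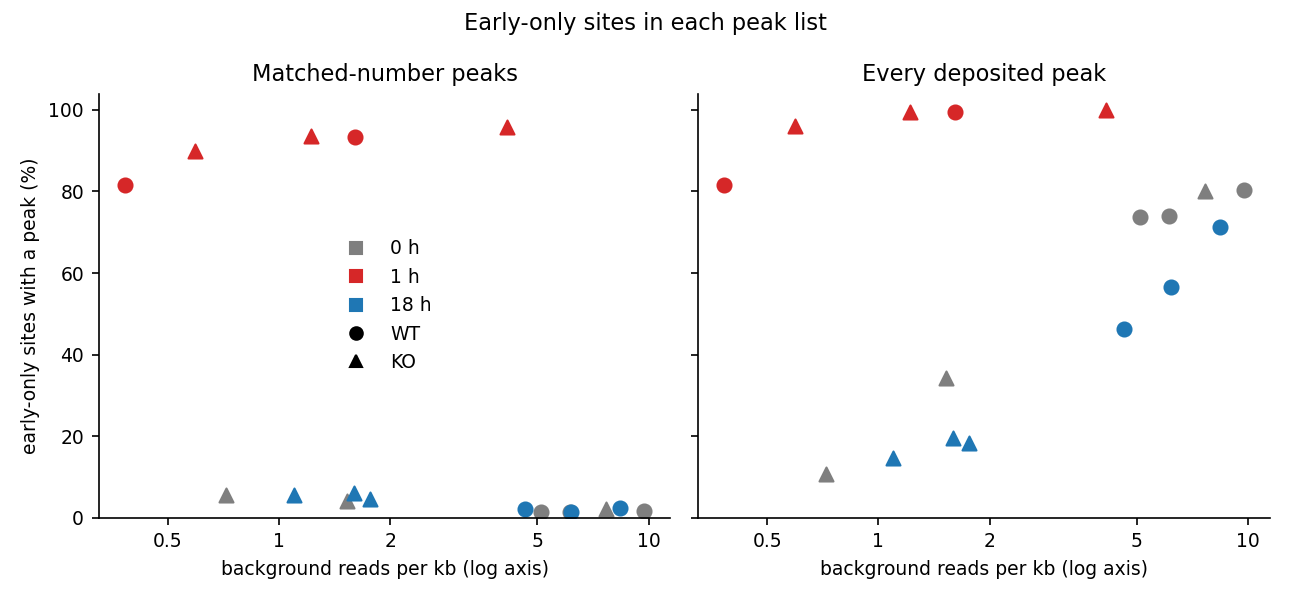
Percent of the 1089 early-only sites with a peak in each list against the depth of the list in background reads per kb (log axis), among the matched-number peaks (left) and among every deposited peak (right). Each point is 1 list, coloured by time, with circles for WT and triangles for KO; on the right, the shares at 0 h run from 10.7% in the shallowest list to 80.3% in the deepest, and the 5 lists at 1 h lie between 81.5% and 100%, where the rule that chose the sites puts them.

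Peak height was compared between deep lists, in which weak sites can be seen. It is expressed as the log2 of the peak's fold enrichment over the median fold of the 10404 sites present in all 17 lists, so that 0 is the height of a typical constitutive site. A peak in all 8 lists above 4 reads per kb was found at 350 early-only sites. Their median relative height was -2.73, -2.64 and -2.73 in the 3 WT lists and -2.64 in the deep KO list at 0 h, and -2.46, -2.37 and -2.36 in the 3 WT lists at 18 h. In the single deep list at 1 h, KO replicate 1, the median was -1.15. Per site, the height at 1 h exceeded the mean at 0 h by a median of 1.57 log2 units (interquartile range 1.17 to 2.07) and the mean at 18 h by 1.28 (0.92 to 1.70). The heights at 18 h were 0.27 above those at 0 h at the median, with an interquartile range of -0.03 to 0.65. The 350 sites needed a peak in every deep list. Of the 1089 sites, 429 had a peak in all deep lists at 18 h and 732 in all deep lists at 0 h. The filter thus favoured sites high at 18 h, so the height at 18 h over 0 h is partly selected. A higher peak at 1 h follows from the rule, which used the ranks at all 3 times, so the differences from 1 h are a description. Only 1 deep list is available at 1 h, and it is KO, so they have no replicate check either.

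**Figure D3:**
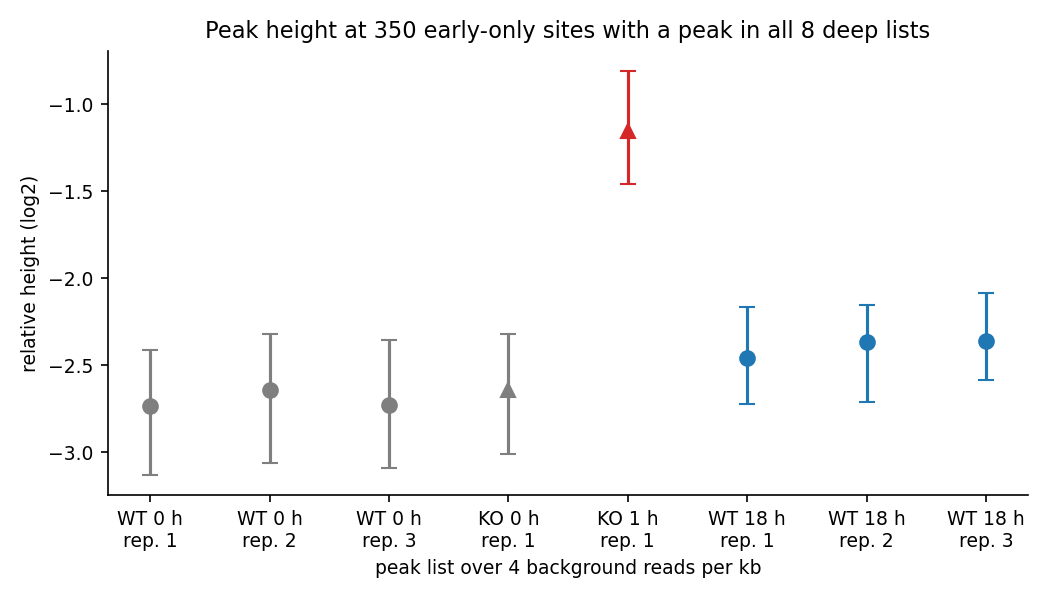
Median relative height (log2 of peak fold over the median fold of the constitutive sites) at the 350 early-only sites with a peak in all 8 lists above 4 background reads per kb, with bars for the interquartile range over sites. The single list at 1 h has a median of -1.15 and the lists at 0 h and 18 h lie between -2.73 and -2.36.

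A smaller group was free of peaks at other times even in the complete lists. No peak of any rank was found at 0 h in 155 early-only sites (14.2%), at 18 h in 233 (21.4%) and at either time in 81 (7.44%). For comparison, 20 of the 536 sites opened early and kept (3.73%) and 79 of the 799 late-only sites (9.89%) had no peak at 0 h. The 5 best-ranked of the 81 sites lay in introns of Anxa5, which encodes the phosphatidylserine-binding protein annexin A5, and of the kinase gene Nek6, and in intergenic DNA nearest to Slc45a1, Cend1 and Atp2b1. The Anxa5 site (chr3:36453034-36454181) ranked 4243 and 5983 in WT and 7108, 4571 and 6441 in KO at 1 h. The Nek6 site (chr2:38523819-38524896) ranked 5896 and 4571 in WT and 4404, 10503 and 6126 in KO. Both sites were thus about as high as a typical constitutive site at 1 h, with relative heights of -0.17 to 0.22 and -0.47 to 0.19, and had no peak in the 12 lists at 0 h and 18 h. The other 3 sites were weaker at 1 h. The Slc45a1 site (chr4:150706987-150707667), with AP-1, NF-kB, C/EBP and STAT motifs, ranked 14973 and 9530 in WT and 6414, 5120 and 8447 in KO, so that all 3 KO lists were ahead of both WT lists. The site nearest to Cend1 held no motif and ranked 8964 to 10894 over the 5 lists, and that nearest to the calcium pump gene Atp2b1 ranked 7218 to 14082.

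Of the 12 early-only sites with the best mean rank, the leading site lay in intergenic DNA 69192 bp from the nearest protein-coding transcription start site (TSS), that of Hs1bp3 (chr12:8386266-8387552). It ranked 4005 and 3527 in WT and 2411, 1552 and 4242 in KO at 1 h, at relative heights of 0.22 to 0.78. At 0 h its peak ranked 43848 to 56967 in the 4 deep lists and was missing from the other 2, and at 18 h it ranked 27669 to 31928 in 4 lists. The ranks of this site at 1 h and at the other times did not overlap, which the rule largely sets.

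The gene Tnfaip3, which encodes A20, a ubiquitin-editing enzyme that restrains NF-kB signalling, was nearest to 5 early-only sites. The strongest of them (chr10:19045777-19046581), 30543 bp from the TSS and carrying the AP-1 motif shown above, ranked 4575 and 6102 in WT and 3935, 2085 and 5141 in KO at 1 h. Outside 1 h it had a single weak peak, ranked 64984 in WT replicate 3 at 0 h, the deepest list. Nfkb1, which encodes the p105 precursor of the p50 subunit of NF-kB, was nearest to 4 early-only sites. The strongest was intronic (chr3:135639947-135641929), contained an NF-kB motif, and ranked 5983 and 5002 in WT and 4121, 4590 and 3725 in KO. No list held a peak there at 0 h, and 3 lists did at 18 h, ranked 32446 to 52418.

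Further sites among the 12 best were nearest to Pik3cg, which encodes the catalytic subunit of PI3K gamma, and to Ehd1, a gene of endocytic recycling. The Pik3cg site (chr12:32146466-32147195, AP-1 motif) ranked 2492 and 4161 in WT and 3513, 3219 and 4455 in KO at 1 h, against 41478 or lower in rank at 0 h and 26761 or lower at 18 h. The Ehd1 site (chr19:6272785-6274695), 2750 bp from the TSS with a C/EBP motif, ranked 3039 and 3429 in WT and 3337, 6128 and 5495 in KO. The intronic sites of Zbtb32, a zinc-finger repressor gene, and St3gal1, a sialyltransferase gene, whose sequences are shown above, differed at the other times. The Zbtb32 site had a peak in 5 lists at 0 h and in all 6 at 18 h. The St3gal1 site had none at 0 h and a peak in 4 lists at 18 h. The remaining sites of the 12 lay at the start of Adhfe1, in introns of Dnm3 and Macrod2, and in intergenic DNA nearest to Spata13 and Hhat, with mean ranks of 3673.2 to 5166.8.

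At the weak end, the last sites to qualify were those nearest to Kcna7 and Mysm1, with mean ranks of 23637.2 and 23721. At the Kcna7 site the ranks were 21481 and 24155 in WT and 33245, 24104 and 24056 in KO at 1 h, and 22574, 31595 and 24546 in WT at 0 h. Its ranks at 1 h thus overlapped those at 0 h in the complete lists. Just outside, a site in an intron of Ncoa2 was in all 3 KO lists at 1 h (ranks 11020, 3152 and 4404) and in neither WT list, and a site nearest to Spry2 was in 3 lists.

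Early-only sites were mostly distal. Only 58 (5.33%, 95% Wilson interval 4.14 to 6.82) had their summit within 1 kb of a protein-coding TSS, against 30.2% of all consensus sites, 7.28% of the sites opened early and kept and 5.13% of late-only sites. By position, 540 summits (49.6%) were intronic, 505 (46.4%) intergenic, 31 in a UTR and 13 in a coding exon. The median distance to the nearest TSS was 20352 bp, compared with 8304 bp for all consensus sites and 18120 bp for those over 1 kb from a TSS. Early-only sites had a median width of 699 bp, against 960 bp for distal consensus sites and 1160 bp for all consensus sites. Late-only sites had 932 bp and sites opened early and kept 1039 bp. The width is that of the merged peaks, so it depends on how many lists hold a site, which the rule limits. Another early-only site was within 50 kb for 227 of them (20.8%). They were found on every autosome, at 2.33% to 4.22% of the consensus sites, and made up 6 of 527 consensus sites on the X chromosome and 0 of 11 on the Y chromosome.

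Early-only sites carried AP-1 and NF-kB motifs at higher shares than all consensus sites together, and sites opened early and kept carried NF-kB motifs at a higher share still. An AP-1 motif lay within 100 bp of the summit in 311 sites (28.6%, 26.0 to 31.3), against 16.2% of all consensus sites, 21.5% of those over 1 kb from a TSS, 24.3% of sites opened early and kept and 16.5% of late-only sites. An NF-kB motif was found in 148 (13.6%, 11.7 to 15.8), compared with 4.82% of all consensus sites, 5.20% of distal ones, 18.7% of sites opened early and kept and 4.51% of late-only sites. Both motifs occurred together in 35 early-only sites (3.21%), against 0.79% of all consensus sites, 1.03% of distal ones and 3.54% of sites opened early and kept. Restricting early-only sites to those over 1 kb from a TSS left the shares at 28.5% and 13.6%. Motifs were searched on both strands. AP-1, NBRE and PU.1 were searched as exact letters and the other motifs named here by patterns with variable positions. The intervals cover the counting of sites only. No test of these shares was made, because sites of the same lists are not replicates. The AP-1 share depended on how the sites were chosen. It was 22.3% when the pattern was called on every deposited peak and 22.2% in the 81 sites without any peak at 0 h or 18 h, close to the 21.5% of distal consensus sites, whereas the NF-kB share was 15.8% and 25.9%.

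**Figure D4:**
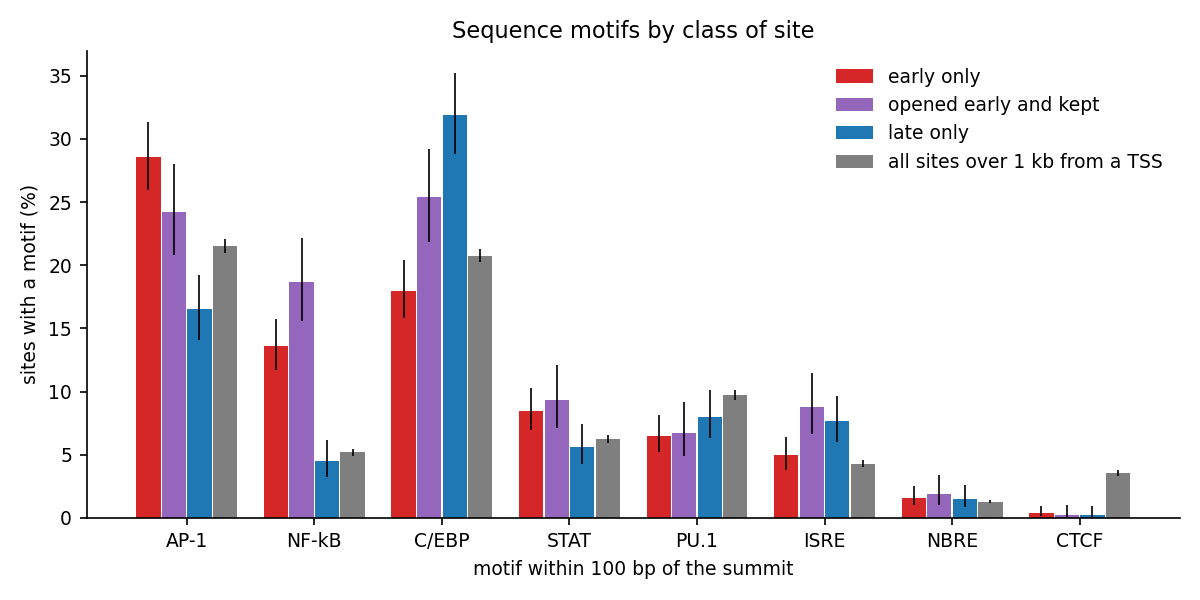
Percent of sites with each motif within 100 bp of the summit in early-only sites, sites opened early and kept, late-only sites and all consensus sites over 1 kb from a TSS, with 95% Wilson intervals. AP-1 reaches 28.6% in early-only sites and C/EBP 31.9% in late-only sites, whereas NF-kB is at 13.6% and 18.7% in the classes gained at 1 h and at 4.51% in late-only sites.

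For other motifs the shares were closer to the background or below it. C/EBP motifs were in 18.0% of early-only sites (15.8 to 20.4), near the 20.8% of distal consensus sites, but in 25.4% of sites opened early and kept and in 31.9% of late-only sites. The ISRE, the interferon-response element scanned as 2 GAAA half-sites 2 bases apart, was in 4.96% (4.28% of distal sites), against 8.77% of sites opened early and kept and 7.63% of late-only sites. TTCNNNGAA, bound by STAT factors, was in 8.45% (6.23% of distal sites), and GAGGAAGT, bound by PU.1, in 6.52% (9.72%). CTCF motifs were in 4 early-only sites (0.37%), against 3.57% of distal consensus sites. The NBRE of Nur77 was found in 17 sites (1.56%, 0.98 to 2.49), against 1.27% of distal sites. No match to any of the 11 motifs searched was seen in 425 early-only sites (39.0%).

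Within the set, the NF-kB motif went with absence at 0 h in the complete lists. Of the 148 sites with the motif, 29.1% had no peak of any rank at 0 h, compared with 11.9% of the 941 without it. For AP-1 the shares were 11.3% with and 15.4% without the motif, and for C/EBP 9.18% and 15.3%. Absence at 18 h showed less of a difference, 19.6% with and 21.7% without an NF-kB motif. Of the 81 sites with no peak at 0 h or 18 h, 25.9% held an NF-kB motif, 22.2% an AP-1 motif and 8.64% a C/EBP motif. The strength at 1 h was similar, with median mean ranks of 16946 with and 17501 without an NF-kB motif. Of the AP-1 matches within 250 bp of the summit, 41.0% lay within 50 bp of it, fewer than the 47.3% at distal consensus sites. For NF-kB the share was 42.6%, against 36.4% at distal consensus sites and 50.6% at sites opened early and kept, and for C/EBP it was 23.3%.

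The genes nearest to early-only sites included genes of the first wave of the LPS response. The 1089 sites had 916 different nearest genes, 4.19% of the 21842 protein-coding genes annotated, and 62 of 217 genes from 7 lists of LPS-response and macrophage genes (28.6%). The listed genes were also frequent near the other classes, with 17.5% nearest to a site opened early and kept (2.20% of all genes) and 18.4% nearest to a late-only site (3.34%). The listed genes have more open sites than most, and among genes nearest to at least 1 consensus site the shares were 30.0% and 6.95%. Counted by sites, 7.99% of early-only sites and 3.27% of all consensus sites were nearest to a listed gene. The nearest gene is an assignment by distance, and expression was not measured here. The gene lists were chosen with earlier results of these data known, so the shares here and for each list below are a description.

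Among 34 immediate-early transcription factors, 12 were nearest to an early-only site (35.3%), namely Fos, Fosb and Jun, which encode AP-1 subunits, and Ier2, Ier5, Klf4, Klf6, Klf7, Myc, Csrnp1, Bhlhe40 and Nfil3. Klf6, a zinc-finger factor induced by LPS, was nearest to 4. The best-ranked of these (chr13:5842889-5843307), 18390 bp from the TSS, ranked 13658 and 19405 in WT and 12842, 14383 and 14398 in KO at 1 h. It had a peak in 2 lists at 0 h and in none at 18 h. The next, 559098 bp from Klf6 with an AP-1 motif, was missing from KO replicate 2. A site 9101 bp from Csrnp1 (chr9:119965611-119973473), in an intron of the fractalkine receptor gene Cx3cr1, ranked 10679 and 14637 in WT and 17885, 13876 and 18240 in KO, and 58605 to 63141 in 3 lists at 0 h. The Csrnp1 site thus had very weak peaks before stimulation. The Ier2 site (chr8:84656501-84657236) ranked 18633 and 10521 in WT and 15166, 20718 and 11146 in KO, and 21349 in WT replicate 1 at 18 h, which was within the matched number there.

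Of 21 NF-kB subunit and feedback genes, 5 were nearest to an early-only site (23.8%): Nfkb1 and Rel, subunits, Nfkbiz, an atypical inhibitor and co-activator, Tnfaip3, and Malt1, a signalling protease. Together they had 13 such sites. After the strongest of Tnfaip3 and Nfkb1, the best-ranked were a second Tnfaip3 site, 152311 bp from the TSS, at 9106 and 15512 in WT and 15810, 12466 and 12621 in KO, and an intronic Nfkb1 site, at 14786 and 13698 in WT and 15987, 13336 and 19089 in KO. Of 30 genes that brake the signal, 11 were nearest to one (36.7%), including 4 dual-specificity phosphatases (Dusp4, Dusp5, Dusp8 and Dusp14), which dephosphorylate MAP kinases, and Zfp36l1 and Zfp36l2, which promote decay of AU-rich mRNAs. The Zfp36l1 site (chr12:79832550-79833111, AP-1 motif) lay 280101 bp from the TSS. It ranked 11232 and 15624 in WT and 12383, 7316 and 18523 in KO at 1 h, 32311 to 40886 in 4 lists at 0 h, and had no peak at 18 h. The sites of Dusp5, 16270 bp from the TSS, of Gadd45a, a stress-induced inhibitor of growth, and of Pde4b, a cyclic AMP phosphodiesterase gene, were weaker at 1 h, with ranks of 13920 to 19537, 13178 to 19981 and 10867 to 23731. Each of these 3 had peaks in 5 lists at 0 h.

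Cytokines and chemokines had the highest share, with 16 of 43 genes (37.2%): Il1a, Il1b, Il12b, Il27, Lif, Csf2, Cxcl1, Cxcl5, Ccl2, Ccl3, Ccl4, Ccl5, Ccl9, Edn1, Hbegf and Tnfsf15. The site nearest to the neutrophil chemokine gene Cxcl5 (chr5:90717852-90718453), 41244 bp away, was the best-ranked, at 12302 and 7108 in WT and 6178, 6932 and 7255 in KO at 1 h. At 0 h its peak ranked 30800 to 35583 in 4 lists. The site 26979 bp from Il12b, which encodes the p40 subunit of IL-12 and IL-23 (chr11:44372130-44373322), ranked 4624 and 6945 in WT but 9584, 11190 and 24648 in KO, so that both WT lists were ahead of all 3 KO lists. At the TSS of Il1b, the gene of IL-1 beta, a merged site 8662 bp wide (chr2:129363077-129371738) ranked 7038 and 7995 in WT and 17031, 11709 and 13831 in KO, again with no overlap between genotypes. Such full separation in 1 direction or the other is common: for relative height it was seen at 11.1% and 10.7% of the consensus sites present in all 5 lists at 1 h. The Ccl5 site (chr11:83535896-83536970) contained an ISRE and ranked 16367 and 6129 in WT and 11915, 12611 and 10147 in KO, with genotypes overlapping.

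**Figure D5:**
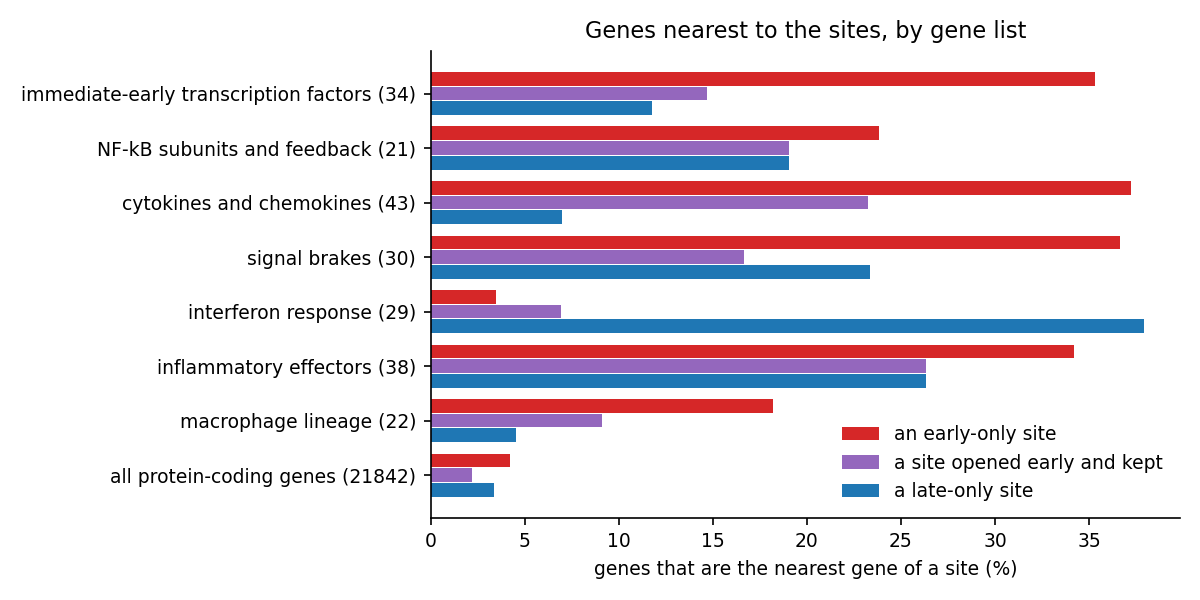
Percent of the genes of each list (number of annotated genes in parentheses) that are the nearest protein-coding gene of an early-only site, a site opened early and kept or a late-only site. Interferon-response genes reach 37.9% for late-only sites and 3.45% for early-only sites, and the bottom bars give the share over all protein-coding genes.

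Among 29 interferon-response genes, 1, the guanylate-binding protein gene Gbp5, was nearest to an early-only site (3.45%), near the 4.19% of all protein-coding genes. Late-only sites were nearest to 11 of them (37.9%), against 3.34% of all genes. Its site, in an intron with AP-1, ISRE and C/EBP motifs, was missing from the WT list replicate 1-2, ranked 13047 to 17755 in the other 4 lists at 1 h, and ranked 20396 to 27306 in 5 lists at 18 h. Inflammatory effectors numbered 13 of 38 (34.2%), among them Cd40, Cd80 and Cd83, molecules of antigen-presenting cells, the adhesion molecules Icam1 and Cd44, Tlr2, and the urokinase genes Plau and Plaur. Cd83 had 3 early-only sites. The best (chr13:43777287-43779269) ranked 5597 and 5625 in WT and 8399, 9090 and 9130 in KO at 1 h and 28271 to 32001 in 5 lists at 0 h. The Plaur site, in an intron with AP-1 and STAT motifs, ranked 6191 and 17028 in WT and 13477, 12090 and 14026 in KO, and had 1 weak peak at 18 h, ranked 57344. Of 22 macrophage lineage genes, 4 were nearest to one (18.2%): Maf, Runx1, Mrc1 and Mitf. Counted by sites, the share was near the background, with 0.55% of early-only sites and 0.41% of all consensus sites nearest to a lineage gene. The Maf site lay 314600 bp from the TSS and the Runx1 site 126604 bp, and both had peaks in 5 lists at 0 h. The Mitf site was missing from the WT list replicate 1-2 and ranked 11760 to 17914 in the other 4 lists at 1 h. The Mrc1 site had no peak of any rank in the lists at 0 h and 18 h and was in 4 lists at 1 h.

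Most of the 916 genes, 788, were nearest to 1 early-only site, and 31 to at least 3. The glutamate transporter gene Slc1a2 had 6, of 14 consensus sites, and 2 of these lay in exons of the neighbouring gene Cd44, which was itself nearest to 3 more. Adgrl2, Etv6 and Tnfaip3 had 5, Klf6, Nfkb1, Prdm1, Sik3 and St3gal1 had 4. All 5 sites of Etv6, which encodes an ETS-family repressor, were in its introns, as were the 4 of Sik3, a kinase gene, each of which held an AP-1 motif. Sites nearest to 1 gene share a locus and are not independent.

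KO and WT were compared at 1 h. The rule did not use the genotype, but it allowed only 1 missing list at 1 h, so each site was in at least 2 of the 3 KO lists and 1 of the 2 WT lists. The shares present are therefore bounded by the rule and are given without a test. Among the matched-number peaks, 93.0% ± 2.97 (SD, n = 3) of the early-only sites were present in KO and 87.5% ± 8.38 (SD, n = 2) in WT, a difference of 5.52 percentage points. The WT list replicate 1-2 was the lowest and the shallowest, and without it the difference was -0.69 points. At the 587 sites present in all 5 lists, the median relative height was -0.95, -0.85 and -0.92 in KO and -0.78 and -0.97 in WT, a difference of -0.03 log2 units and is given without a test, because the rule used the ranks of these peaks. The sign was not stable: the difference was 0.59 when a peak had to cover 50% of the site, 0.65 with the fold as deposited, 0.023 with the best 10000 peaks and 0.045 with the replicate block. The medians of the genotypes overlapped. All KO lists were above all WT lists in relative height at 53 of the 587 sites (9.03%) and under them at 71 (12.1%). Over the 15661 consensus sites present in all 5 lists these shares were 11.1% and 10.7%, so the early-only sites were near the background in both directions.

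In the complete lists, the share of early-only sites with a peak, KO minus WT, was -34.3 points at 0 h, 7.90 at 1 h and -40.4 at 18 h, with a mean of -22.3 points over the 3 times. Over all consensus sites the same differences were -13.5, 15.0 and -21.0 points, so the KO lists also held a peak at fewer of all consensus sites at 0 h and 18 h. No test is given, since the mean includes the share at 1 h, which the rule bounds. With the pattern called on every deposited peak, the sign of the mean turned (6.20 points). The depth of the lists moved with it: at 18 h the KO lists had 1.10 to 1.76 background reads per kb and the WT lists 4.62 to 8.38, and the KO list at 0 h with a depth like that of WT, replicate 1, held a peak at 80.1% of the sites, against 73.6% to 80.3% in WT. The part of depth in the difference was not tested.

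Whether the early-only pattern is shared by both genotypes was asked with sites chosen in 1 genotype and measured in the other. In the KO lists alone, 752 sites (2.2% of the consensus sites) were in all 3 lists at 1 h and in none of the 6 others. Of these, 77.5% ± 9.50 (SD, n = 2) were present in WT at 1 h, 3.95% ± 0.54 (SD, n = 3) at 0 h and 6.69% ± 0.43 (SD, n = 3) at 18 h. In the WT lists alone, 1049 sites (3.07%) were in both lists at 1 h and in no other. In KO, 74.1% ± 2.59 of them were present at 1 h, 6.16% ± 2.74 at 0 h and 7.59% ± 0.76 at 18 h (SD, n = 3 each). Of all consensus sites, 59.5% and 66.1% were present in the WT lists at 1 h and 67.6% to 70.4% at the other times, and 63.8% to 68.1% and 56.2% to 69.8% in KO. The sites chosen in the other genotype were thus above these shares at 1 h and far below them at 0 h and 18 h. The lists at 1 h did not overlap those of the other times, the lowest at 1 h being 70.7% and the highest at other times 8.48%. The 4 differences, 66.5 to 73.5 points, each had p = 0.1 in a two-sided exact permutation test, which is the smallest p the design allows, and 0.1 after adjustment. The lists share 393 sites, 52.3% of those chosen in KO and 37.5% of those chosen in WT.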

How the data were processed

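ATAC-seq peak lists of WT and Nur77-KO BMDMs at 0, 1 and 18 h of LPS were analysed. According to the study and the submitters' processing notes, reads were trimmed with cutadapt 2.6 and mapped to mm10 by the snakeATAC pipeline; DiffBind 3.0.15 is also named there. Mapping quality 20 and q 0.001 stand in the peak names. The peak caller is not named in the sources used here. The deposited fold enrichment is the signal at the summit relative to background of the same list, and the deposited -log10 p and -log10 q values compare both. The deposited score is 10 times -log10 q. These values depend on depth and were not normalised between lists by the authors.

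Entries with the same interval were reduced to the strongest summit, which left 24389 to 71456 intervals per list. Intervals were ranked by -log10 p, and the best 24389, the length of the shortest list, were kept. Peaks tied in -log10 p with the last kept peak made up at most 13.9% of a kept list, and ties higher in the ranking were not counted. Kept intervals overlapping by 1 bp were merged. The background level was solved from fold and p and divided by the shortest peak, taken as the fragment length, to give background reads per kb. All summit heights were then whole reads, within 0.05 reads at low heights and the rounding of the deposited digits at high ones. No total read count was used, so depth is relative, and the weakest deposited peak stands for 3 reads at its summit in the shallowest list.

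The nearest TSS and place came from the GENCODE annotation of protein-coding genes on GRCm38, and motifs were searched within 100 bp of the summit. Members, motifs and gene lists were chosen with earlier results of these data known. Named are the 12 best mean ranks, up to 4 sites per gene list, genes with 3 or more sites, the 5 best sites without other peaks, and 2 sites on either side of the limit. Times were compared over lists by two-sided exact permutation tests, Benjamini-Hochberg adjusted over 4 tests, in sites chosen in the other genotype. Genotypes are compared without a test, because the rule used the ranks compared. Steps were tested on simulated data. Python 3.11.15, numpy 2.4.6, pandas 2.3.3, scipy 1.17.1, pyfaidx 0.9.0.4 and matplotlib 3.10.9 were used. Alternatives were the number of peaks kept, tie order, overlap, summit windows, a stricter pattern, motif and promoter windows, the height scale, the replicate block and each list left out.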

Additional observations from a re-analysis of the deposited data

How the results depend on the processing

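The number of early-only sites depended most on the rule. It was 653 with the best 10000 peaks of each list, 641 with every deposited peak, 614 when a peak had to cover 50% of the site, 393 under the strict pattern (all 5 lists at 1 h, none at other times) and 81 when sites were absent from every complete list at 0 h and 18 h. Of the 1089 sites, 66 (6.06%) overlapped an early-only site from the best 10000 peaks and 139 (12.8%) one from every deposited peak. Under these rules in the same order, the AP-1 share was 32.2%, 22.3%, within the counting interval, 25.7% and 22.2%. The NF-kB share was 15.8% with every deposited peak, 16.5% strict and 25.9% for the 81 sites. With motif windows of 50 and 250 bp, AP-1 was at 17.5% and 38.5% and NF-kB at 9.18% and 20.8%. Promoters held 10.7% with the best 10000 peaks, 2.96% with every deposited peak, 9.15% with summit windows, 3.58% within 500 bp and 0% of the 81 sites. Over lists, the mean share with a peak of any rank was 90.6% at 0 h and 83.4% at 18 h with the best 10000 peaks, 3.61% and 3.77% with every deposited peak, and 0% and 0% for the 81 sites, by construction for the last.

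The height difference between KO and WT at 1 h changed sign to 0.023 with the best 10000 peaks, 0.59 at 50% cover, 0.65 with the fold as deposited and 0.045 with the replicate block. The difference in peaks of any rank was 6.20 points with every deposited peak and -25.1 under the strict pattern. The cause was not tested. Leaving out a list gave 1114 to 1409 sites, 27.9% to 29.4% AP-1, 12.8% to 14.1% NF-kB, 4.88% to 5.90% at promoters, and 55.4% to 69.5% and 32.9% to 44.1% with a peak of any rank at 0 h and 18 h. KO minus WT ranged from -0.69 to 11.6 points, -0.17 to 0.069 log2 units and -28.6 to -17.0 points. Differences between times ranged from 65.2 to 80.2 and 62.7 to 77.5 points for sites chosen in KO, and 55.3 to 69.3 and 53.9 to 67.9 for sites chosen in WT.

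Replicate numbers did not pair the lists: over 7 pairs, the correlation of deviations from the group means was -0.15 to 0.04. With the replicate block, KO minus WT at 1 h was 0.09 points from 1 pair, and -25.0 points for peaks of any rank. Requiring the summit inside the site and leaving out promoters were chosen after seeing the data. Of 315 alternative values, 278 kept their direction and side of the threshold of 0.05 or moved little. Just 61 of these came from settings other than leaving out a list. Another 27 moved, 7 changed sign and 3 crossed the threshold. The tally includes genotype comparisons given here without a test. Where the smallest p of the exact permutation test was 0.1, the threshold could not be crossed, so only a change of sign could count. Depth limits what absence means: in the shallowest lists a weak site cannot be seen, so missing peaks there do not show closed chromatin.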

Other observations

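The distal early-only sites were near a gene with a constantly open promoter about as often as distal sites in general. Of the 1031 early-only sites over 1 kb from a TSS, 425 (41.2%) had a nearest gene with a promoter peak in all 17 matched-number lists, against 41.1% of all distal consensus sites. Of these 1031 sites, 29.2% lay over 50 kb from a TSS, compared with 28.4% of distal sites opened early and kept, 24.1% of distal late-only sites and 22.1% of all distal consensus sites. More than 1 AP-1 motif was found at 35 of the 1089 sites (3.21%), at 2.99% of sites opened early and kept, 2.48% of distal consensus sites and 0.88% of late-only sites. Windows that were over 50% repeat-masked made up 5.05% of early-only sites, 2.99% of sites opened early and kept and 7.38% of late-only sites. No test was made of these shares.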
